A study of Mus musculus with 12 samples.

Results

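Perineuronal nets are lattices of extracellular matrix around neurons, and 10 genes for their core and for the related matrix of the brain were followed here across punches of mouse brain. The genes were chosen by name, with earlier results of these data known. All 10 were found among the 54429 entries of the count tables. They were Acan, Bcan, Ncan and Vcan for the proteoglycans, Hapln1, Hapln2 and Hapln4 for the link proteins, Tnr for tenascin-R, and Has2 and Has3 for hyaluronan synthases. Total RNA was sequenced from C57BL/6 mice in 12 libraries that form 4 groups of 3. The treatment was social isolation started early, with group housing as its control, in males for punches named BLA and in females for punches named VTA. The groups were thus isolated male BLA, group-housed male BLA, isolated female VTA and group-housed female VTA. The labels give the punched regions by these abbreviations and the tissue as cerebrum, name no transgene, drug or age, and do not say whether a library is 1 animal or a pool. Region and sex change together and cannot be told apart. What the p-values measure is the spread from library to library, and part of that may be technical.

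The matrix of the adult brain is built on hyaluronan, a long sugar chain that synthases in the cell membrane extrude into the space between cells. Lecticans are proteoglycans with chondroitin sulfate chains that grip hyaluronan at their N-terminal end, and small link proteins clamp that grip. Tenascin-R joins the other ends of the lecticans to each other. In nets around parvalbumin interneurons and other neurons aggrecan is the best known lectican, and the closing of juvenile plasticity coincides with the maturing of nets in several brain areas.

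Total counts ran from 28278708 to 69276892 per library, and the 10 genes took 0.0523% to 0.0857% of them. Levels are given as CPM, counts relative to library size after scaling the 12 libraries to each other by TMM. Slc6a3, the dopamine transporter and a defining marker of dopamine neurons, went with the region labels: it was at most 1.09 CPM in BLA libraries and 229.5 to 525.5 CPM in VTA libraries. Some libraries stood apart. Reads at 3 loci that collect ribosomal RNA made up 18.6% of counts in BLA isolated library 3 and 28.6% and 41.8% in BLA group-housed libraries 1 and 2, against at most 1.57% in each of the others. In VTA isolated libraries 1 and 3, Ttr, a choroid plexus gene, reached 205.4 and 3119 CPM, against 0.255 to 2.73 CPM in the other VTA libraries. In VTA isolated library 2 the summed meningeal fibroblast markers were highest, through the collagens Col1a1, Col1a2 and Col3a1. The other markers of that list were not highest there. In BLA isolated library 1 the 11 striatal projection neuron markers summed to 2449 CPM, against 616 to 1571 CPM in the other BLA libraries. Its 11 glutamatergic markers summed to 915 CPM, against 1351 to 1838 CPM. Several results that rest on these libraries are given with and without them.

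Of the 10 genes, 6 lie in neighbouring pairs on the mouse genome (mm10, GENCODE M21). Bcan (chr3:87987531-88000230, minus strand) and Hapln2 (chr3:88021750-88027583, minus strand) are 21519 bases apart. Hapln4 (chr8:70083457-70090862, plus strand) and Ncan (chr8:70093085-70120873, minus strand) are 2222 bases apart and face each other with their 3′ ends. Hapln1 (chr13:89539796-89611652, plus strand) and Vcan (chr13:89655312-89742509, minus strand) also face each other, 43659 bases apart. No protein-coding gene lies within any of these 3 gaps. Acan (chr7:79053483-79115099, plus strand) ends 2 bases from Hapln3, the remaining link protein gene. Tnr spans chr1:159523769-159931729 on the plus strand, Has2 chr15:56665627-56694539 on the minus strand and Has3 chr8:106870242-106884566 on the plus strand. The strand setting of the counting is not given, so reads from overlapping genes on opposite strands may not be told apart. Such an overlap covers 352 exon bases of Has3 (5.52%, with Chtf8), 182 of Has2 (4.30%, with Has2os) and 443 of Tnr (3.44%, with Gm38039, which had no reads).

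The promoters of 4 genes are shown because the results turn on these genes: Ncan and Tnr were higher in BLA, and Bcan and its neighbour Hapln2 were lower. RefSeq sequences of the bases before the start (build GRCm38.p6) were matched by symbol for 7 of the 10 genes. Each is printed 5′ to 3′ on the gene's own strand and ends where an annotated exon begins or at the start site. Capitals mark matches, on either strand, to the following motifs. They were the TATA box with the letters TATAAA, the GC box with GGGCGG, an E-box with CAGCTG, a SOX motif with ACAAAG, an NFI motif with TTGGCA, a CRE motif with TGACGT and the CCAAT box.
Ncan: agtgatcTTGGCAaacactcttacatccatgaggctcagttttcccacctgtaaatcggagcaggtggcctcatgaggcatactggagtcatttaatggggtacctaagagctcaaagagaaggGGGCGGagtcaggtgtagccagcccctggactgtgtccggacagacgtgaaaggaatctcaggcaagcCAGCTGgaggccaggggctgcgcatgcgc
Tnr: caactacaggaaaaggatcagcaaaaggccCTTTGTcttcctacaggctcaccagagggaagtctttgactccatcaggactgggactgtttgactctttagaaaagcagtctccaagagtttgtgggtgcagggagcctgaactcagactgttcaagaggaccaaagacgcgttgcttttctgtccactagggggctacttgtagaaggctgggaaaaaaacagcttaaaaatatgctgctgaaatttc
Bcan: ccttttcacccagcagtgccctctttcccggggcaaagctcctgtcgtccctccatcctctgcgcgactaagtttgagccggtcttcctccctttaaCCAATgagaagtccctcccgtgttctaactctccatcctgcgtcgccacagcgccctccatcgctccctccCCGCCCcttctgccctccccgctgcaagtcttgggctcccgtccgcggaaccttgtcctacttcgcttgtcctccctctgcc
Hapln2: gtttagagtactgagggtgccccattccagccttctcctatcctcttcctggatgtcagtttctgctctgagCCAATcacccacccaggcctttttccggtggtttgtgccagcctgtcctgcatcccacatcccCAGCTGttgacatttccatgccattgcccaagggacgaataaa
These are chr8:70120874-70121094 (minus strand) for Ncan, chr1:159523519-159523768 (plus strand) for Tnr, chr3:88000357-88000606 (minus strand) for Bcan and chr3:88027584-88027761 (minus strand) for Hapln2.

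The full windows of 250 bases were searched, and the same windows of 32851 promoters gave the background. The Ncan window held an NFI motif (in 12.3% of all promoters), a GC box (32.7%), an E-box (13.0%) and, in its exon part that is not shown, a TATA motif on the other strand (12.4%). The Tnr window held, of the motifs searched, only a SOX motif on the other strand (16.5% of all promoters). The Bcan and Hapln2 windows each held a CCAAT box (33.8%), beside a GC box in Bcan and an E-box in Hapln2. Acan and Vcan held GC boxes, at 3 and 2 places, and a CCAAT box each, with 2 of the GC boxes of Acan overlapping and an E-box beside them. The CRE motif (6.47%) was in none of the 7 windows. One of them, that of Hapln1 (chr13:89540386-89540635, plus strand), lay inside the annotated gene, past its start, and overlapped a Hapln1 exon. Base composition varied widely among the 7: the window of Acan was 74.4% G and C with 26 CpG sites, and that of Tnr 46.8% with 2 CpG sites, around a median of 52.4% and 6 CpG sites over all promoters. Of the genes higher in BLA, Ncan had 54.4% and 6 CpG sites, and of those lower in BLA, Bcan had 62.0% and 16 and Hapln2 52.4% and 2. A match describes letters and not binding.

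Brevican and neurocan carried most of the lectican RNA, and aggrecan and hyaluronan synthase RNA was scarce. To compare genes, CPM was divided by the length of each gene's merged exons in kb. In BLA libraries Bcan averaged 40.7 ± 6.21 and Ncan 39.3 ± 3.02 CPM per kb (SD, n = 6), and these overlapped, with Bcan above Ncan in 4 of 6 libraries. Tnr followed at 20.96 ± 3.17 CPM per kb and Hapln4 at 11.4 ± 0.930 CPM per kb. Then came Hapln2 at 4.19 ± 1.76 and Hapln1 at 4.11 ± 0.226 CPM per kb, which overlapped. Vcan stood at 2.49 ± 0.221, Has3 at 1.13 ± 0.170, Acan at 0.628 ± 0.117 and Has2 at 0.182 ± 0.107 CPM per kb. Apart from the 2 overlapping pairs, neighbours in this order did not overlap in BLA.

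The order in VTA libraries was less clear-cut. Bcan led at 55.6 ± 6.70 CPM per kb (SD, n = 6), above every other gene in every library. Hapln2 at 15.2 ± 5.12, Ncan at 14.8 ± 2.41, Hapln4 at 13.6 ± 3.52 and Tnr at 10.8 ± 1.93 CPM per kb formed a second tier whose neighbours overlapped. Below them lay Vcan at 2.97 ± 0.122, Hapln1 at 1.85 ± 0.876, Acan at 0.839 ± 0.348 and Has3 at 0.709 ± 0.0883 CPM per kb, each overlapping the next. Has2 was lowest at 0.173 ± 0.0530 CPM per kb. It drew 4 to 57 counts per library, and each of the other 9 genes drew at least 64, so Has2 is the least precise.

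**Figure D1:**
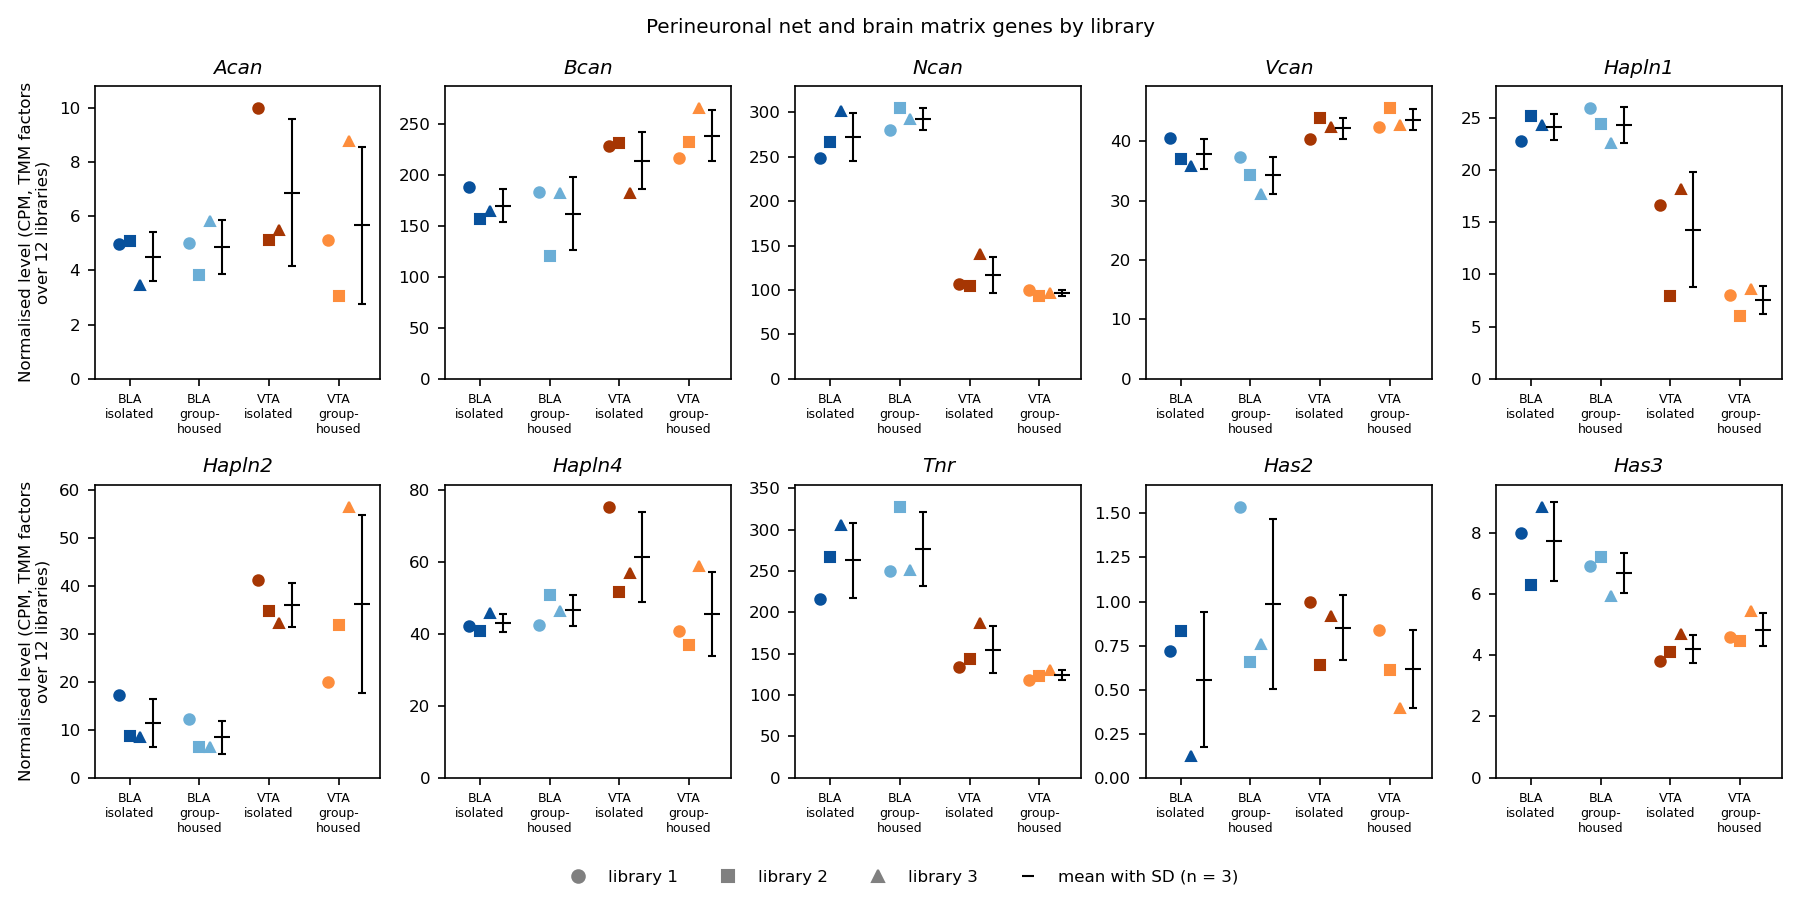
Level of each of the 10 genes in every library, in CPM on a linear axis that starts at 0, with isolated left of group-housed libraries within each region; points are libraries and bars are means of 3. Ncan, Hapln1, Tnr and Has3 stand higher in all 6 BLA libraries than in any VTA library, and Hapln2 lower.

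Setting the male BLA libraries against the female VTA libraries asks how the matrix genes differ between the 2 punched regions, housing held equal. Ncan, Tnr, Hapln1 and Has3 were higher in BLA, by 2.68, 1.96, 2.35 and 1.60-fold. Hapln2, Bcan and Vcan were lower, at 0.275, 0.740 and 0.846 times the VTA level. Acan, Hapln4 and Has2 did not pass. So 7 of 10 genes passed the test (edgeR quasi-likelihood, adjusted p under 0.05), 4 higher and 3 lower, while 47.7% of all 25009 genes tested passed, 23.7% higher and 24.1% lower. The regions differ broadly, and the median log2 fold change was -0.07 over the 10 genes and -0.02 over all genes tested.

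Among the lecticans, neurocan, a proteoglycan abundant in the developing and adult brain, had the largest fold change of the 4. Ncan had 248.8, 286 and 305 CPM (lowest, median, highest of 6) in BLA libraries, against 92.8, 102 and 141 CPM in VTA libraries. The 2 regions did not overlap, and the log2 fold change was 1.42 (SE 0.08, adjusted p = 1.51e-08). Brevican, the lectican most tied to glia and to synapses, went the other way. Bcan had 120.4, 173 and 188 CPM in BLA libraries, against 182, 229.6 and 266 CPM in VTA libraries. The ranges met, since 1 VTA isolated library lay among the BLA values, and the log2 fold change was -0.43 (SE 0.10, adjusted p = 0.00301).

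Versican, the large lectican that is also made outside nets, differed least among the called genes. Vcan had 31.05, 36.5 and 40.6 CPM in BLA libraries, against 40.4, 42.6 and 45.7 CPM in VTA libraries. The ranges overlapped at their edges, and the log2 fold change was -0.24 (SE 0.06, adjusted p = 0.00561). Aggrecan, the core lectican of nets, had 3.48, 4.98 and 5.81 CPM in BLA libraries, against 3.07, 5.30 and 10.01 CPM in VTA libraries. Its VTA values spanned the whole BLA range, and the log2 fold change was -0.39 with a 95% interval of -0.94 to 0.16 (adjusted p = 0.232). Acan was highest in VTA isolated library 1 at 10.01 CPM and VTA group-housed library 3 at 8.78 CPM. The 9 fast-spiking interneuron markers summed to 1130 and 919.8 CPM in these 2 libraries, against 495 to 885 CPM in the other VTA libraries. Of the 9, Pvalb, Syt2, Kcns3, Kcnc1 and Kcnc2 were highest in these 2 libraries, with Pvalb at 74.5 and 51.9 CPM, against 21.1 to 38.0 CPM in the others. Gad1 and Gad2 were not, Lhx6 was lowest in these 2 at 1.45 and 1.95 CPM, against 2.69 to 7.75 CPM in the others, and Cox6a2 was lowest in VTA isolated library 1 at 1.54 CPM. The part of such cells in the Acan values was not tested.

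The link proteins moved apart. Hapln1, the link protein of nets whose loss weakens them, had 22.6, 24.4 and 25.98 CPM in BLA libraries, against 5.99, 8.31 and 18.2 CPM in VTA libraries. All BLA libraries lay above all VTA libraries, and the log2 fold change was 1.23 (SE 0.18, adjusted p = 0.000114). Among isolated libraries alone it was 0.77 (adjusted p = 0.0916), and among group-housed libraries alone 1.70 (adjusted p = 7.53e-06).

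Hapln2, which oligodendrocytes make and which sits at nodes of Ranvier, was far lower in BLA. It had 6.38, 8.59 and 17.2 CPM in BLA libraries, against 20.1, 33.5 and 56.6 CPM in VTA libraries. The regions did not overlap, and the log2 fold change was -1.86 (SE 0.31, adjusted p = 0.00100). Without the 5 libraries that stood apart by ribosomal RNA reads or by Ttr it was -1.96. That fit left a single library in some groups, so its p-value is not given. Hapln4, the link protein that partners brevican at some synapses, had 40.9, 44.1 and 50.8 CPM in BLA libraries, against 37.0, 54.3 and 75.4 CPM in VTA libraries. The VTA values lay on either side of the BLA values, and the log2 fold change was -0.23 with a 95% interval of -0.49 to 0.02 (adjusted p = 0.128).

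Tenascin-R, the crosslinker made by oligodendrocytes and some neurons, followed Ncan rather than Hapln2. Tnr had 216, 259 and 328 CPM in BLA libraries, against 118, 132 and 187 CPM in VTA libraries. All BLA libraries lay higher, with a log2 fold change of 0.97 (SE 0.11, adjusted p = 4.77e-06). Of the synthases, Has3 had 5.95, 7.07 and 8.85 CPM in BLA libraries, against 3.80, 4.54 and 5.45 CPM in VTA libraries, again without overlap. Its log2 fold change was 0.68 (SE 0.12, adjusted p = 0.000268). Chtf8, which shares exon bases with Has3 on the other strand, was also higher in BLA, at 63.8 ± 7.66 CPM against 49.1 ± 6.89 CPM in VTA (SD, n = 6 each), with a log2 fold change of 0.40 (SE 0.08, adjusted p = 0.00120), and its part in the Has3 counts was not tested. Has2 had 0.121, 0.739 and 1.54 CPM in BLA libraries, against 0.396, 0.741 and 0.996 CPM in VTA libraries. Its difference was not detectable at this depth, with a 95% interval of -0.68 to 0.86 for the log2 fold change. In all, 5 of the 10 genes had no overlap between the regions, 4 of them higher and 1 lower in BLA, and 27% of all genes tested had none (12.5% higher, 14.5% lower). Among isolated libraries alone Bcan (-0.32, adjusted p = 0.0819) and Vcan (-0.14, adjusted p = 0.268) did not pass. With library totals as the only scaling, which moved the median of all genes to -0.44, Has3 (0.24, adjusted p = 0.294) did not pass, and Acan (-0.78, adjusted p = 0.0197) and Hapln4 (-0.66, adjusted p = 0.000578) did.

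**Figure D2:**
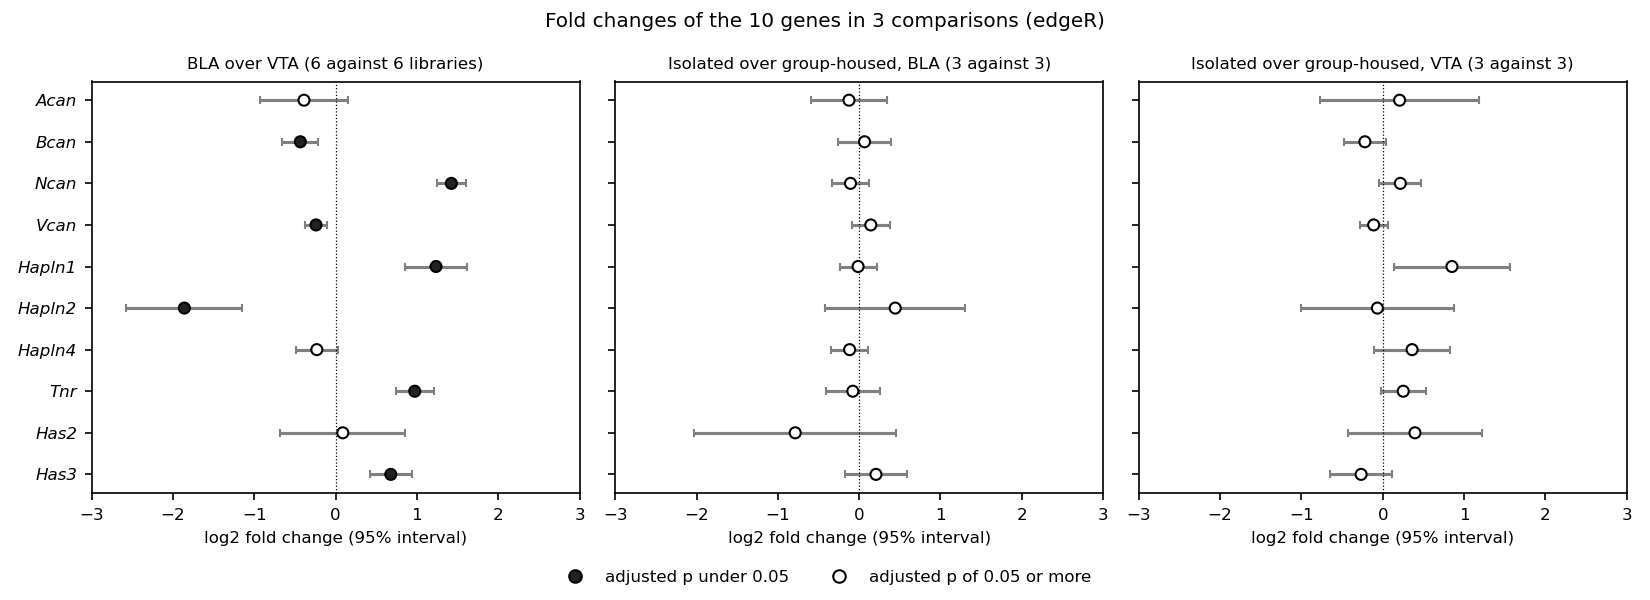
Log2 fold change of each of the 10 genes, with 95% interval, for BLA against VTA, isolated against group-housed in BLA, and the same in VTA. Filled points passed the adjusted threshold of 0.05. The region comparison has 7 filled points, and the other comparisons have none.

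RNA of the markers of several cell types differed between the regions. In bulk RNA, fewer cells of a type and less RNA per cell cannot be told apart. All 14 oligodendrocyte markers tested were called lower in BLA, at a median of -1.31 on the log2 scale, and their summed level ran from 2969 to 5895 CPM in BLA libraries and from 7174 to 14251 CPM in VTA libraries. Hapln2, at -1.86, Bcan, at -0.43, and Vcan, at -0.24, were also lower. Tnr, which oligodendrocytes make too, was higher in BLA, at 0.97, as were Ncan, Hapln1 and Has3. Markers of oligodendrocyte precursors, which also make lecticans, were called lower for 6 of 10 (median -0.45), but Pdgfra and Cspg4 were not called. Of 10 astrocyte markers 8 were called lower and 2 higher in BLA (median -0.63). Among 11 glutamatergic markers 10 were called higher in BLA (median 2.54), with summed levels of 915 to 1838 CPM in BLA libraries and 182 to 597 CPM in VTA libraries. Of 11 striatal projection neuron markers 9 were called higher (median 2.56). Among 9 fast-spiking interneuron markers 5 were called higher and 3 lower. None of the defining markers of these types was at 0 throughout a region, and their part in the differences of the matrix genes was not tested.

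Neighbouring genes did not share a direction throughout. Bcan and Hapln2, which lie next to each other on the same strand, were both lower in BLA. Ncan was higher while Hapln4, whose 3′ end faces it, did not pass. Vcan was lower and Hapln1 higher.

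The balance within each family shifted with the region. In BLA, Bcan and Ncan made up 48.8 ± 5.22% and 47.4 ± 5.27% of summed lectican CPM per kb (SD, n = 6). In VTA, Bcan alone made up 74.7 ± 4.61% and Ncan 20.2 ± 4.44%. The regions did not overlap in either share (exact permutation test over libraries, two-sided, p = 0.00216, the smallest these permutations can give, adjusted over 7 shares p = 0.00303). Vcan made up 3.01 ± 0.325% in BLA and 4.01 ± 0.306% in VTA with the same p, and Acan 0.754 ± 0.124% in BLA and 1.12 ± 0.428% in VTA (exact permutation p = 0.0606, adjusted p = 0.0606).

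Among the link proteins the sum covered Hapln1, Hapln2 and Hapln4, and Hapln3 was left out. Hapln1 supplied 20.9 ± 1.82% of this summed CPM per kb in BLA and 6.05 ± 2.36% in VTA. Hapln2 supplied 20.9 ± 7.31% in BLA and 49.2 ± 7.26% in VTA (exact permutation p = 0.00216 and adjusted p = 0.00303 for each). Hapln4 supplied 58.1 ± 6.41% in BLA and 44.7 ± 5.46% in VTA (exact permutation p = 0.00433, adjusted p = 0.00505). Hapln4 had the largest share in all 6 BLA libraries. In VTA, Hapln2 and Hapln4 each led in 3 of 6 libraries, Hapln4 in isolated libraries 1 and 3 and group-housed library 1. The level of Hapln4 itself did not pass the test between regions. Shares within a family sum to 100% and are not independent of each other.

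**Figure D3:**
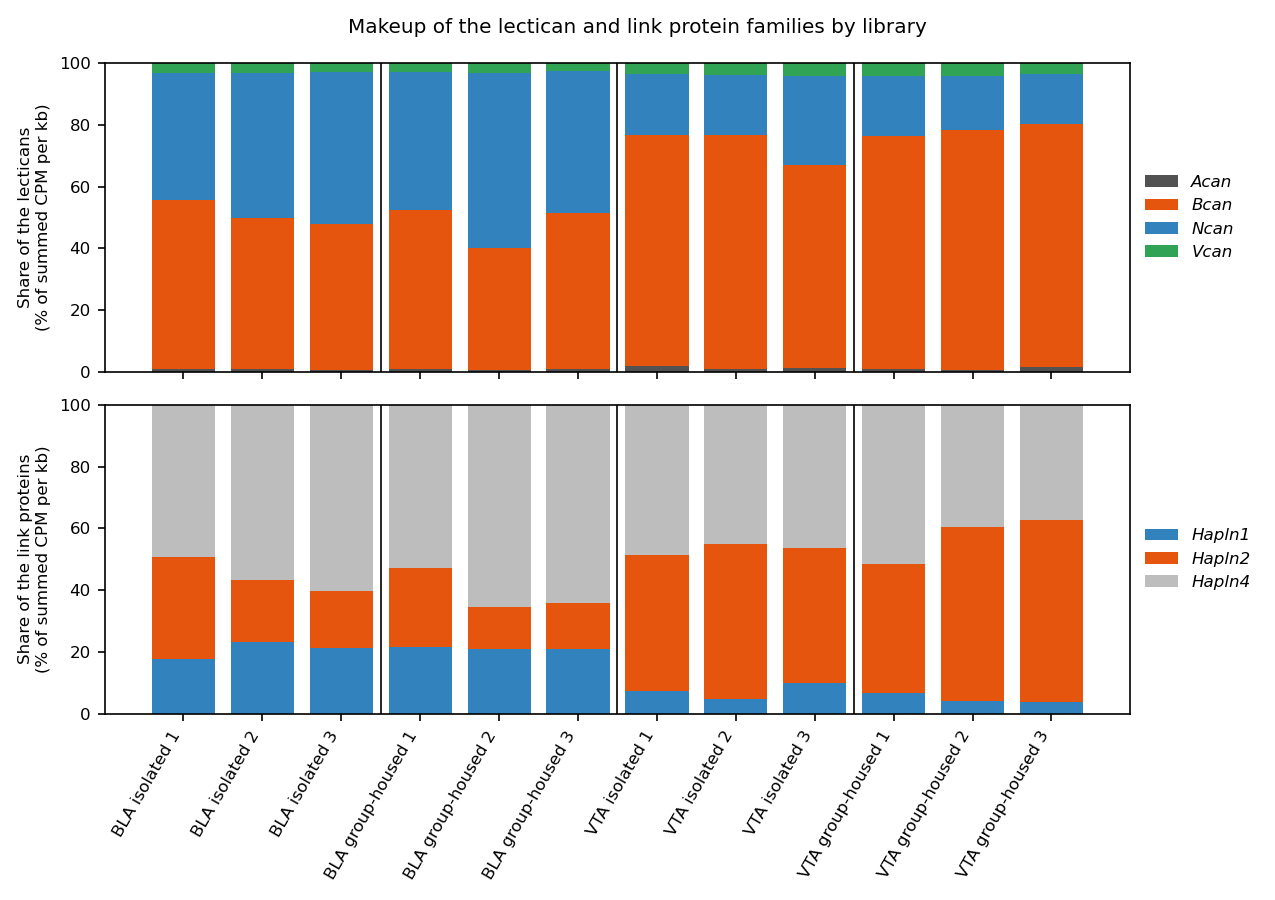
Share of each gene in the summed CPM per kb of its family, in percent, by library, for the 4 lecticans and for 3 link proteins, without Hapln3. Isolated libraries are left of group-housed ones in each region. Ncan takes close to the share of Bcan in BLA libraries and a much smaller one in VTA libraries, and Hapln2 takes a larger share in every VTA library than in any BLA library.

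Genes that act on or beside the net were followed in 5 lists. Of the receptors and ligands held by the net, 13 of 16 tested were called higher in BLA and 2 lower, and their median log2 fold change was 1.67. Over all genes tested 23.7% were called higher and 24.1% lower, with a median of -0.02, and no list was tested against other genes. Among them were Rtn4rl1, a Nogo receptor relative that binds chondroitin sulfate (1.72, SE 0.11, adjusted p = 3.67e-08), and Ptprs, the receptor phosphatase for chondroitin sulfate chains (0.99, SE 0.09, adjusted p = 4.90e-07). Otx2, the homeoprotein that nets capture, was at 0 to 0.0756 CPM in BLA libraries and 5.35 to 16.5 CPM in VTA libraries. Otx2 is also a choroid plexus marker, and its RNA was highest in VTA isolated libraries 1 and 3, at 15.1 and 16.5 CPM, where Ttr was high. In the other VTA libraries Otx2 was at 5.35 to 6.96 CPM, with Ttr at 0.255 to 2.73 CPM.

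For chondroitin sulfate synthesis, 7 of 20 genes tested were called higher in BLA and 2 lower (median log2 fold change 0.14), so that 9 of 20 were called where 47.7% of all genes were. Chsy3, which extends the chain, had a log2 fold change of 0.93 (SE 0.08, adjusted p = 4.82e-07). Xylt1, which starts the chain, had 1.09 (SE 0.10, adjusted p = 5.81e-07). Fam20b, a kinase of the linkage sugar, had -0.42 (SE 0.06, adjusted p = 2.22e-05).

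The other 3 lists had medians below 0. For hyaluronan handling and link proteins, 3 of 12 tested were called higher and 4 lower (median -0.18). Hyal1, a hyaluronidase, had a log2 fold change of -0.76 (SE 0.14), Tnfaip6, which modifies hyaluronan, -1.30 (SE 0.21), and Cd44, the hyaluronan receptor, -1.68 (SE 0.36), with adjusted p of 0.000365, 0.000450 and 0.00339. For other proteoglycans and tenascins, 4 of 13 were called higher and 5 lower (median -0.02). Dcn, decorin, had -2.41 (SE 0.13, adjusted p = 1.55e-08), Sparc, a matrix glycoprotein, -2.61 (SE 0.14, adjusted p = 3.81e-08) and its relative Sparcl1 -0.84 (SE 0.07, adjusted p = 4.22e-07). For proteases and inhibitors, 4 of 19 were called higher and 10 lower (median -0.26). Timp3, a metalloprotease inhibitor, had -0.85 (SE 0.06, adjusted p = 7.11e-08), the membrane protease Mmp16 0.71 (SE 0.08, adjusted p = 2.92e-06) and Mmp14 -1.11 (SE 0.13, adjusted p = 6.50e-06). Dcn is also on the list of meningeal fibroblast markers, of which 7 of 8 were called lower in BLA (median -2.33), and their part was not tested.

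**Figure D4:**
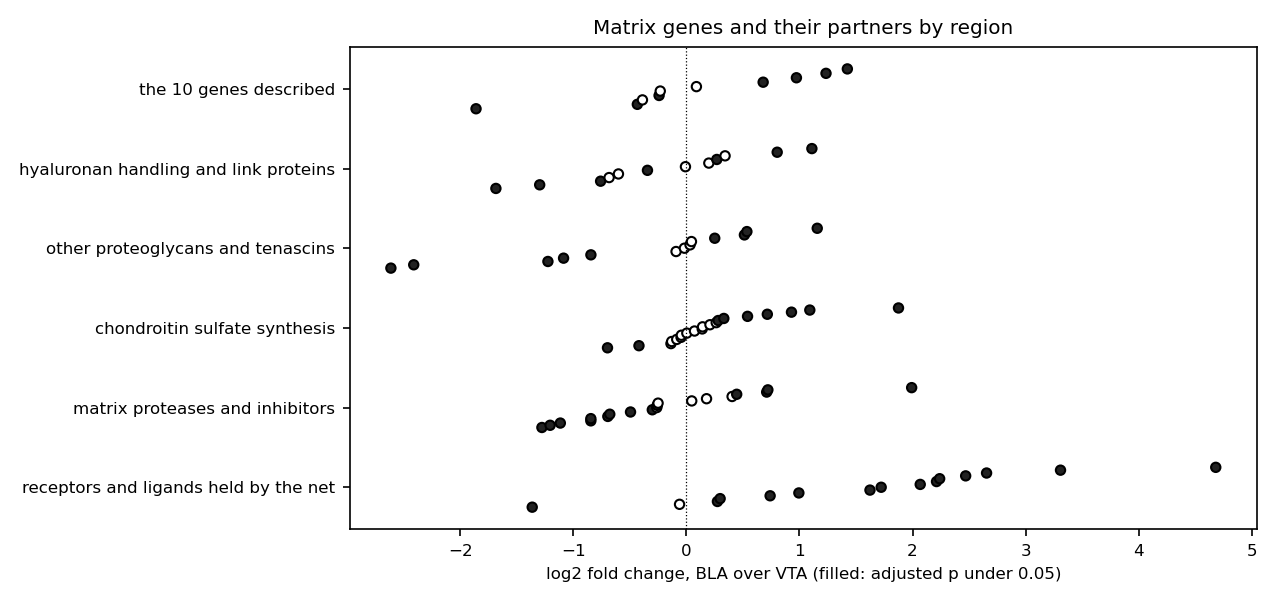
Log2 fold change of BLA against VTA for the 10 genes described (top row) and each tested gene of the 5 related lists. Each point is a gene, filled where the adjusted threshold of 0.05 was passed. Otx2, at or near 0 CPM in BLA libraries, is left out. The receptors and ligands lie mostly above 0, with a median of 1.67 when Otx2 is counted, and the other rows spread on either side of 0.

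Early isolation of males was compared with group housing in the 6 BLA libraries, and no difference in a matrix gene passed the test. None of the 10 was called, and of all 22110 genes tested none did (0%). At an unadjusted p under 0.05 there were again 0 of the 10, against 1.99% of all genes, and DESeq2 called 6 genes in all and 0 of the 10. The median log2 fold change was -0.05 over the 10 and 0.003 over all genes. No gene of the 10 had groups without overlap, against 6.99% of all genes.

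Hapln1, Ncan, Hapln4 and Vcan had the smallest SE of the log2 fold change, 0.10 to 0.11. Hapln1 had 22.8, 25.2 and 24.4 CPM in isolated libraries 1 to 3, against 25.98, 24.4 and 22.6 CPM in group-housed libraries. The groups interleaved, and the log2 fold change was -0.01 with a 95% interval of -0.24 to 0.22. Ncan had 248.8, 267 and 301 CPM in isolated libraries, against 280.1, 305 and 292 CPM in group-housed libraries. Its log2 fold change was -0.11 (95% interval -0.34 to 0.12), and for Tnr it was -0.08 (-0.41 to 0.25). Bcan stood at 0.07 (-0.26 to 0.40), Vcan at 0.14 (-0.09 to 0.37) and Hapln4 at -0.12 (-0.35 to 0.11). Acan had 4.97, 5.07 and 3.48 CPM in isolated libraries, against 4.999, 3.82 and 5.81 CPM in group-housed libraries, with a log2 fold change of -0.12 (-0.59 to 0.34). Ncan and Tnr were lowest in isolated library 1, with Tnr at 216 CPM. That library had the most striatal and the least glutamatergic marker RNA of the BLA libraries. The part of such cells in these values was not tested.

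Low or scattered genes were less well bounded in BLA. Hapln2 had 17.2, 8.70 and 8.49 CPM in isolated libraries, against 12.3, 6.38 and 6.50 CPM in group-housed libraries. In each group library 1 was the highest, and the interval of the log2 fold change, 0.44, ran from -0.42 to 1.30. The summed oligodendrocyte markers were also highest in library 1 of each group, at 5895 CPM in the isolated and 5001 CPM in the group-housed group. Has3 stood at 0.21 (-0.18 to 0.59) and Has2 at -0.79 (-2.03 to 0.46). Every adjusted p was 1.00. With the 3 libraries of many ribosomal RNA reads left out, the log2 fold changes of Bcan, Hapln1 and Has2 were -0.075, 0.091 and 0.027. Those of Hapln2 and Vcan were 0.99 and 0.32. That fit left a single group-housed library, so its p-values are not given. Hapln2 also hung on single libraries, at 0.021 without isolated library 1 and 0.83 without group-housed library 1.

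In the related lists none was called in BLA. All 15 receptors and ligands tested leaned lower (median log2 fold change -0.12). In the same libraries 10 of 11 glutamatergic markers leaned lower (median -0.22) and all 11 striatal markers higher (median 0.46), none of them called, and their part was not tested. The genes of smallest p per list were Rtn4rl2 (-0.26) and Sema3a (-0.13) for receptors and ligands, and Lyve1 (-0.87) and Hyal3 (-0.71) for hyaluronan handling. Tnc (-0.29, unadjusted p = 0.0398) and Bgn (-0.42) led the other proteoglycans, Chpf (-0.20) and Chst15 (0.19) chondroitin sulfate synthesis, and Mmp24 (-0.13) and Timp4 (0.12) the proteases and inhibitors.

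Early isolation of females was compared with group housing in the 6 VTA libraries. None of the 10 genes passed the test there either, and 1 of 24082 genes did (0.00415%), Postn, the matrix protein periostin (log2 fold change 1.11, SE 0.09, adjusted p = 0.0235), named for being the only call. Hapln1 came closest. At an unadjusted p under 0.05 there was 1 of the 10, Hapln1, against 18.3% of all genes. DESeq2 called 486 genes in all and 0 of the 10. The median log2 fold change was 0.21 over the 10 genes and -0.001 over all genes.

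Hapln1 had 16.7, 7.97 and 18.2 CPM in VTA isolated libraries 1 to 3, against 8.04, 5.99 and 8.58 CPM in group-housed libraries. Isolated libraries 1 and 3 lay at more than the highest group-housed value, and isolated library 2 lay among the group-housed values. The log2 fold change was 0.85 (SE 0.30, 95% interval 0.14 to 1.56, unadjusted p = 0.0252, adjusted p = 0.249). Without isolated library 2 it was 1.14 (SE 0.17, adjusted p = 0.0277), in a fit that called 4.81% of all genes. Without isolated libraries 1 and 3, which left a single isolated library, the log2 fold change was 0.040.

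Libraries 1 and 3 also carried RNA of other cells. Slc17a7, the vesicular glutamate transporter of forebrain excitatory neurons, had 23.8, 8.28 and 233 CPM in isolated libraries 1 to 3, against 2.87, 5.19 and 3.57 CPM in group-housed libraries. Ttr had 205.4, 2.73 and 3119 CPM in isolated libraries, against 0.353, 0.255 and 0.901 CPM in group-housed libraries. The 11 glutamatergic markers summed to 272, 220.4 and 597 CPM in isolated libraries, against 182, 189 and 184 CPM in group-housed libraries. The 14 choroid plexus markers summed to 291, 56.7 and 3603 CPM in isolated libraries, against 65.5, 69.0 and 66.9 CPM in group-housed libraries. Hapln1 was close in libraries 1 and 3, while Slc17a7 and Ttr were many times higher in library 3. Isolated library 2, without which Hapln1 passed, stood apart in other genes. Its Col1a1, a fibroblast collagen, was at 100.1 CPM, against 4.43 to 11.3 CPM in the other VTA libraries. Its 8 meningeal fibroblast markers summed to 284 CPM, against 81.5 to 152 CPM. Of these, Col1a2 and Col3a1 were also highest there, at 78.5 and 49.8 CPM. Dcn, at 29.3 CPM, and Lum, Slc6a13, Ogn and Igf2 were not highest there. Its Gad1, an enzyme of GABA synthesis, was at 87.9 CPM, against 196 to 291 CPM. The part of these cells in the Hapln1 result was not tested.

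**Figure D5:**
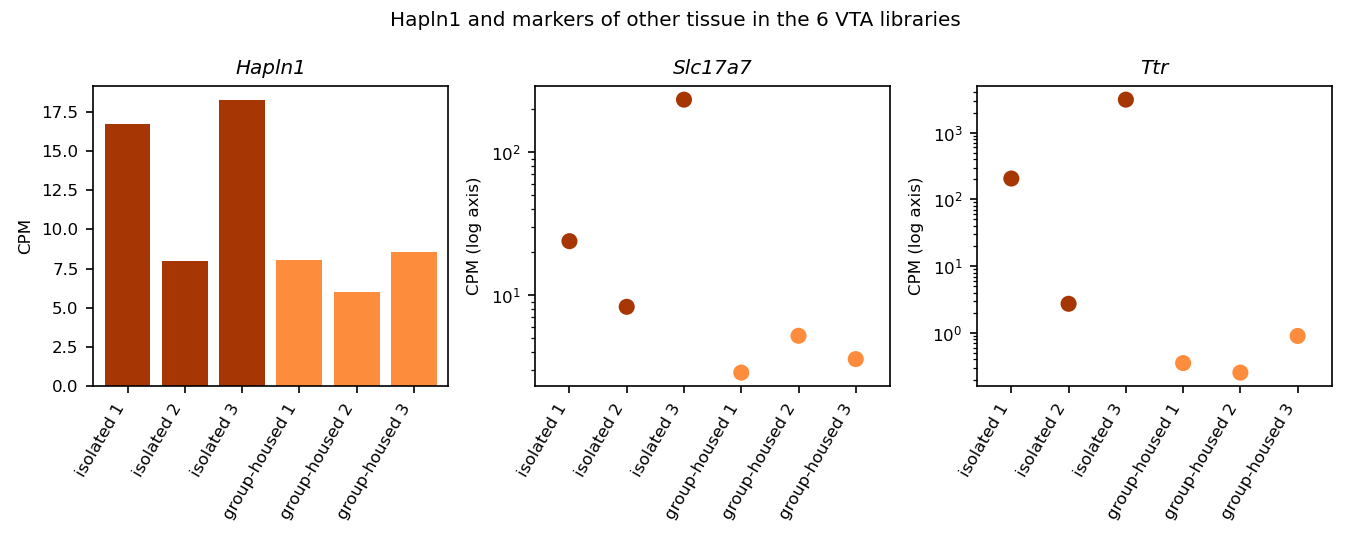
Hapln1 beside Slc17a7 and Ttr in the 6 VTA libraries, in CPM, isolated libraries left of group-housed ones; the Hapln1 axis is linear from 0 and the other axes are logarithmic. Hapln1 is at 16.7 and 18.2 CPM in isolated libraries 1 and 3, the same libraries in which Ttr reaches 205.4 and 3119 CPM.

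The larger matrix genes shifted little in VTA. Ncan had 106, 104 and 141 CPM in isolated libraries, against 99.4, 92.8 and 96.5 CPM in group-housed libraries, a log2 fold change of 0.22 (SE 0.11, adjusted p = 0.328). Tnr had 134, 143 and 187 CPM in isolated libraries, against 118, 123 and 131 CPM in group-housed libraries, a log2 fold change of 0.25 (SE 0.12, adjusted p = 0.300). In both the groups did not overlap, and isolated library 3, which had the most Slc17a7, was the highest. At this scaling 18.9% of all genes tested were higher and 11.1% lower without overlap. With scaling factors from the 6 VTA libraries alone, Ncan and Tnr overlapped and Has3 was instead lower without overlap, against 12.7% of genes higher and 13.5% lower.

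Bcan had 228, 231 and 182 CPM in VTA isolated libraries, against 217, 232 and 266 CPM in group-housed libraries, a log2 fold change of -0.22 (SE 0.11, adjusted p = 0.327). Its lowest value was in isolated library 3. Vcan had the smallest SE of the 10, with a log2 fold change of -0.11 (95% interval -0.28 to 0.06). Acan had 10.01, 5.12 and 5.48 CPM in isolated libraries, against 5.12, 3.07 and 8.78 CPM in group-housed libraries. The groups interleaved, and the interval of its log2 fold change, 0.21, ran from -0.77 to 1.19. Hapln4 stood at 0.36 (-0.11 to 0.83), with its highest value, 75.4 CPM, in isolated library 1.

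Hapln2 had 41.2, 34.8 and 32.3 CPM in VTA isolated libraries, against 20.1, 31.97 and 56.6 CPM in group-housed libraries. The group-housed libraries spanned the isolated ones, and the interval of its log2 fold change, -0.07, ran from -1.002 to 0.87. All 14 oligodendrocyte markers leaned higher in the isolated libraries (median 0.42), none called. Has3 stood at -0.27 (-0.65 to 0.12) and Has2 at 0.40 (-0.43 to 1.22).

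No gene of the 5 related lists was called in VTA. Of chondroitin sulfate synthesis genes 18 of 20 leaned higher in isolated libraries (median log2 fold change 0.13), and of receptors and ligands 12 of 16 (median 0.40). Hyaluronan handling had 8 of 12 higher (median 0.11), other proteoglycans 6 of 13 (median -0.06) and proteases and inhibitors 12 of 19 (median 0.10), while 49.8% of all genes tested were higher. The genes of smallest p were Tnfaip6 (0.68, SE 0.18) and Habp4 (0.17) for hyaluronan handling, Agrn (-0.28, SE 0.08) and Cspg4 (-0.37, SE 0.12) for other proteoglycans, and Chpf2 (-0.18) and Csgalnact1 (0.41) for chondroitin sulfate synthesis. For proteases and inhibitors they were Plat (0.26, SE 0.08) and Timp2 (0.24), and for receptors and ligands Otx2 (0.94, SE 0.34) and Ptprf (-0.18). Their adjusted p lay between 0.236 and 0.300. Of glutamatergic markers 10 of 11 and of choroid plexus markers all 14 leaned higher, none called, and their part was not tested.

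The response to isolation in BLA was set against that in VTA by a test of the difference itself. None of the 10 genes passed, and of all 25009 tested none did (0%). At an unadjusted p under 0.05 there were 3 of the 10, against 14.9% of all genes, and DESeq2 called 138 genes in all and 0 of the 10. Hapln1 had a difference of -0.93 on the log2 scale (SE 0.35, adjusted p = 0.306), Ncan -0.38 (SE 0.16, adjusted p = 0.312) and Hapln4 -0.54 (SE 0.24, adjusted p = 0.323), each a lower response in BLA than in VTA. Without VTA isolated library 2 the difference of Hapln1 was -1.22 (adjusted p = 0.0148), in a fit that called 487 genes. The median was -0.39 over the 10 genes and -0.06 over all genes tested. Over the 10 genes it was -0.19 without VTA isolated library 1 and -0.22 without VTA isolated library 3.

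The genes whose pattern was most like each member were ranked by Pearson's r of log2(CPM + 0.5) over the 12 libraries, among 16653 genes with a mean of at least 1 CPM. These r carry no test. Ncan, Tnr, Hapln1, Hapln2 and Has3 did not overlap between the 2 regions, so their r describe in large part the region difference. Acan, Bcan, Vcan and Hapln4 overlapped, and Acan and Hapln4 were not called between the regions. Ncan lay nearest to Krt9 and Rasl10a (r = 0.999 for each) and Tnr to Sptbn1 (0.998) and Pak7 (0.996). Hapln1 lay nearest to Snn (0.986) and Rab3ip (0.985), and Hapln2 to Plxnb3 (0.988) and Pmp22 (0.986). Bcan lay nearest to Acaa1a (0.975) and Col11a2 (0.973), and Vcan to Zfp51 (0.955) and Naalad2 (0.949). Looser neighbours were Rai1 (0.965) and Gm39041 (0.964) for Has3, Luzp1 (0.954) and Cend1 (0.952) for Hapln4, and Npas1 (0.907) and Nefl (0.896) for Acan. Has2 had a mean under 1 CPM and was not ranked.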

How the data were processed

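The deposited values are raw gene counts, as 1 table per library and 1 table of the whole series. These differed at 2 entries, neither a member, and the tables per library were used. The submitters' processing notes list cutadapt, TopHat2 and HTSeq without versions, and the genome build mm10. Annotation and strand setting are not given there. Per the labels' protocols, stranded libraries of total RNA were made after depletion of ribosomal RNA. The 37 mitochondrial entries held 0 counts.

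Low counts were removed by filterByExpr (minimum count 10, total 15). Libraries were scaled by TMM, and genes were tested by the robust quasi-likelihood F test of edgeR 4.0.16 (R 4.3.3), with Benjamini-Hochberg adjustment over all genes tested and a threshold of 0.05. Isolation was fitted on the 6 libraries of a region, and the difference of responses and BLA against VTA on all 12 with 4 group means. Log2 fold changes are isolated over group-housed, or BLA over VTA, and intervals are 95%. CPM use factors over 12 libraries, and lengths are merged GENCODE M21 exons. Family shares were tested with an exact permutation test over libraries. The scripts were tested on simulated data. Alternatives used DESeq2 1.42.0, other scalings and filters, a replicate block and left-out libraries. Figures were drawn with matplotlib 3.10.9.

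The 10 genes and all lists were chosen with earlier results of these data known. The text names every member, the 3 genes of smallest p per list for BLA against VTA and 2 for each isolation comparison, and the 2 genes of highest r per member with a mean of at least 1 CPM. Marker genes, Chtf8 and Postn were named after their values were seen. Over the 12 pairs of libraries of the same group, the lowest chi-square per degree of freedom was 20.82, so none was taken for a repeat deposit.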

Additional observations from a re-analysis of the deposited data

How the results depend on the processing

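Of the 10 genes, 5 to 8 passed for BLA against VTA under every alternative counted here. In the other comparisons 0 or 1 passed, the 1 being Hapln1 without VTA isolated library 2. Fits that left a single library in a group are not counted. With library totals only, the median of all genes moved to 0.31 (BLA isolation), -0.11 (VTA isolation), 0.42 (difference) and -0.44 (BLA against VTA), log2 values are to be read against these, and 2145 genes were called higher and 10577 lower in BLA against VTA (16.9% higher, against 49.6% with TMM). There Has3 was lost at 0.24 (adjusted p = 0.294), and Acan (-0.78, adjusted p = 0.0197) and Hapln4 (-0.66, adjusted p = 0.000578) were called lower. Values that turned direction with library totals were Acan 0.17, Ncan 0.20, Hapln1 0.31, Hapln4 0.20 and Tnr 0.25 for BLA isolation, Acan 0.064, Ncan 0.10 and Tnr 0.12 for the difference, and Has2 -0.32 for BLA against VTA. Isolated libraries alone gave 7258 genes called for BLA against VTA, against 11938 with all, Has2 at -0.54, Hapln4 called at -0.50 (adjusted p = 0.0239), and Bcan (-0.32, adjusted p = 0.0819), Vcan (-0.14, adjusted p = 0.268) and Hapln1 (0.77, adjusted p = 0.0916) lost; group-housed libraries alone gave Hapln4 0.040. Bcan -0.075, Hapln1 0.091 and Has2 0.027 turned for BLA isolation when the 3 libraries of many ribosomal RNA reads were left out. Acan turned to -0.19 for VTA isolation without isolated libraries 1 and 3.

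Counts of all genes called were 0, 1 and 0 for BLA isolation, VTA isolation and the difference. They were 6, 0 and 13 with library totals, 6, 486 and 138 with DESeq2, and 8, 17 and 1 with no filter. Leaving out each library gave 0 to 4, 0 to 1200 and 0 to 487, with the highest of the last 2 without VTA isolated library 2. Leaving out each library, the 10 genes had 0 to 1 calls for VTA isolation and for the difference. Values that changed sign then ranged from -0.26 to 0.019 for Acan, -0.10 to 0.16 for Bcan, -0.071 to 0.032 for Hapln1 and -0.21 to 0.067 for Tnr in BLA isolation. They ranged from -0.15 to 0.65 for Acan and -0.35 to 0.39 for Hapln2 in VTA isolation, -0.018 to 0.83 for Hapln2 in the difference, and -0.15 to 0.30 for Has2 in BLA against VTA. Hapln4 was called without VTA group-housed library 2, at -0.29 (adjusted p = 0.0477). The cause of these changes was not tested.

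Replicate numbers were not taken as pairs in the main fits. Deviations of same-numbered libraries correlated at 0.17, -0.02 and 0.01 in BLA and -0.06, -0.03 and -0.02 in VTA. Those of unlike-numbered libraries correlated at -0.10 to 0.11 in BLA and -0.06 to 0.09 in VTA. The 0.17 was the highest in BLA, and so few values cannot settle whether libraries were paired. With the replicate block the 10 genes had 0, 0, 0 and 7 calls, as without it, all genes had 0, 0, 1 and 11437 calls, and Hapln2 turned to 0.050 for VTA isolation. Depth limits Has2 most.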
